A study of Mus musculus with 6 samples.

Results

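The prostaglandin and leukotriene synthesis genes are 10 of the 17320 genes in the table of normalized counts. They were taken by gene name and not by their values, and are *Pla2g4a*, *Alox5*, *Alox5ap*, *Ltc4s*, *Lta4h*, *Alox15*, *Ptgs1*, *Ptgs2*, *Hpgds* and *Ptges*. RNA was sequenced from mouse peritoneal cells (PC) grown for 9 days with stem cell factor (SCF) and IL-3, a culture in which mast cells grow out and which the labels call peritoneal cell-derived mast cells. There were 3 libraries labelled *Mcemp1*-/- (replicates 4, 5 and 6) and 3 wild type libraries (replicates 1, 2 and 3), and both groups received the same cytokines. The comparison asks how transcripts differ in the absence of MCEMP1, a membrane protein of mast cells. *Mcemp1*-/- mice carry a CRISPR-Cas9 deletion in exon 1 on a C57BL/6 background, so the deletion is in every cell of the culture and not in mast cells alone. Whether each library came from its own mouse, and whether KIT-positive cells were selected first, is not given in the sources used here. The p-values therefore describe the spread among these 6 libraries, part of which may be technical.

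Eicosanoids are signalling lipids made from arachidonic acid. Cytosolic phospholipase A2 (*Pla2g4a*) frees arachidonic acid from membranes. 5-Lipoxygenase (*Alox5*), helped by its activating protein FLAP (*Alox5ap*), turns it into leukotriene A4, from which *Ltc4s* makes leukotriene C4 and *Lta4h* makes leukotriene B4. The cyclooxygenases (*Ptgs1* and *Ptgs2*) turn it into prostaglandin H2, from which *Hpgds* makes prostaglandin D2 and *Ptges* makes prostaglandin E2. Mast cells are known for leukotriene C4 and prostaglandin D2, and neutrophils for leukotriene B4.

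The libraries did not group by their labels. Across genes on the log2 scale, *Mcemp1*-/- replicates 4 and 5 correlated at 0.99 with each other (genes are not independent replicates). The library labelled *Mcemp1*-/- replicate 6 had a correlation of 0.98 with wild type replicates 1 and 3, and of 0.92 with replicates 4 and 5 and with wild type replicate 2. Wild type replicate 2 itself had a correlation of 0.93 with the other wild type libraries. *Mcemp1* had 0.201, 0.0849 and 4.23 normalized counts in replicates 4, 5 and 6, against 9.80, 7.68 and 16.9 in the wild type libraries. Reads outside the deleted stretch still count, so this is a weak check of the label. *Xist*, a transcript of female cells, was high in the library labelled *Mcemp1*-/- replicate 6 (1481) and in wild type replicate 3 (1297), and under 1 elsewhere. The 16 mast cell markers summed to 29685 to 54930 in *Mcemp1*-/- PC and to 27781 to 28872 in wild type PC, and 10 of them were higher and 1 lower in every *Mcemp1*-/- library. The 15 neutrophil precursor markers summed to 489, 355 and 13774 in replicates 4, 5 and 6, against 9179 to 15232 in wild type PC. The 10 macrophage markers summed to 4.29, 2.50 and 131 in those libraries, against 150 to 201 in wild type PC. The 9 eosinophil markers summed to 10.7 to 12.8 in *Mcemp1*-/- PC and to 53.3 to 144 in wild type PC. Wild type replicate 2 stood apart in the sum of 6 fibroblast and mesothelium markers, at 74.8 there and 1.27 to 2.11 in the other libraries. *Dcn* weighs most in that sum, at 51.6. The mesothelium marker *Msln* did not stand apart, at 0.538 there and 0.414 to 0.831 in the other libraries. Tests of single genes and of ratios are given with and without the library labelled *Mcemp1*-/- replicate 6, apart from those of *Ptges* and *Alox15*, which were below the limit for testing.

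Promoter sequences of RefSeq (GRCm38.p6, the assembly behind mm10) are shown for *Alox5*, *Ltc4s* and *Lta4h*. *Alox5* had the highest level of the set, and *Ltc4s* and *Lta4h* draw on the same leukotriene A4 and differed in opposite directions in replicates 4 and 5. Each run reads 5′ to 3′ on the strand of the gene and ends at the base before the RefSeq start, or, for *Ltc4s*, at the base before the gene as the table places it. Capitals mark a match to a motif searched.
Alox5, chr6:116461179-116461428, minus strand: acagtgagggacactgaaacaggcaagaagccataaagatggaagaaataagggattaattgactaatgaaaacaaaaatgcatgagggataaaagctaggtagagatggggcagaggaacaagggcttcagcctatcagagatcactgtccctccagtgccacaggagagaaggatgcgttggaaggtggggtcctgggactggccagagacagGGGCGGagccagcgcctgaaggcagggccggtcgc
Ltc4s, chr11:50238617-50238782, minus strand: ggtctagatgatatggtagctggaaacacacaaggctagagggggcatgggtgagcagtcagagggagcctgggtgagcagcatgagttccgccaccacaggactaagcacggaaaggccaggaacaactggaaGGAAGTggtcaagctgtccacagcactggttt
Lta4h, chr10:93453146-93453395, plus strand: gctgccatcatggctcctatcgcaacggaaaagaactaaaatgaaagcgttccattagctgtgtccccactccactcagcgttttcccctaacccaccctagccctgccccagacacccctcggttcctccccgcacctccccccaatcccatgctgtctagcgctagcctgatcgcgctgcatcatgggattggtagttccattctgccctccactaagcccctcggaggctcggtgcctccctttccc
The motifs were searched on both strands in the 250 bases before the RefSeq start, for the 8 of 10 genes that matched the table. GATA factors were searched as AGATAA or as TGATAA. E-boxes were searched as CACGTG or as CATGTG. The ETS motif was GGAAGT and the SP motif was GGGCGG. The AP-1 motif was TGANTCA and the C/EBP motif was TTGCNNAA. The *Alox5* window held GGGCGG from -35 to -30, and 32.7% of all 32851 promoter windows of that length hold this motif. The *Ltc4s* window held GGAAGT from -116 to -111, counted from a RefSeq start that lies 84 bases inside the gene as the table places it, and 19.7% of windows hold this motif. No motif was matched in the *Lta4h* window. The *Hpgds* window held the C/EBP match TTATGCAA, the E-box CATGTG and GGAAGT, which are found in 9.56%, 17.6% and 19.7% of windows. Its RefSeq start lies 178 bases inside the gene as the table places it, and all these matches fall within that stretch. The GATA motifs, in 16.6% of windows, were matched in this set only at an internal start of *Pla2g4a*. A match describes letters and not a bound site.

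Of the 10 genes, 8 were tested, and *Ptges* and *Alox15* were below the limit for testing, a mean of 1 CPM. The test was limma on log2(normalized count + 0.479) across 13513 genes, with Benjamini-Hochberg adjustment. At an adjusted p under 0.05, 0 of the 8 were higher and 0 lower in *Mcemp1*-/- PC, where the background was 0.0148% of genes higher and 0.0592% lower. At an unadjusted p under 0.05 from limma, 4 were higher and 0 lower, against 11.6% of all genes higher and 13.8% lower. For 3 genes, *Alox5*, *Alox5ap* and *Hpgds*, all *Mcemp1*-/- libraries lay above all wild type libraries, as they did for 14.8% of all genes, and for 0 genes all lay below, against 14.7% of all genes. The median log2 difference of the 8 genes was 0.40, beside -0.01 for all genes. When the library labelled *Mcemp1*-/- replicate 6 was left out, limma called 5 of the 8 higher and 1 lower at an adjusted p under 0.05, against 19.4% of all genes higher and 22.4% lower. The median was then 0.46. Calls of this second fit rest on replicates 4 and 5, which lay close together.

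**Figure D1:**
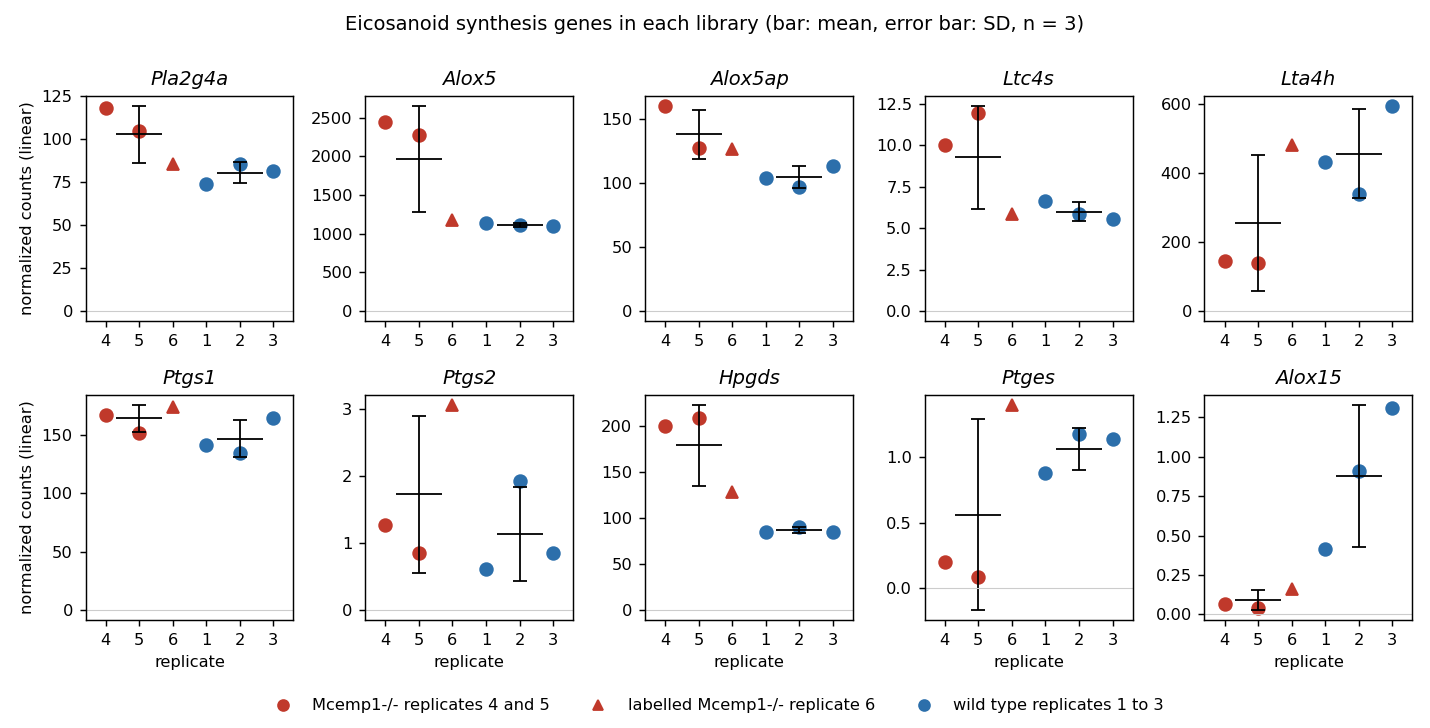
Normalized counts (linear axes, 1 panel a gene) of the 10 synthesis genes in *Mcemp1*-/- replicates 4, 5 and 6 (red, with a triangle for the library labelled *Mcemp1*-/- replicate 6) and in wild type replicates 1, 2 and 3 (blue), where bars are means and error bars SD (n = 3). *Alox5* is at 2445 and 2275 in *Mcemp1*-/- replicates 4 and 5, with the triangle at 1176 beside the wild type libraries, and *Lta4h* is at 144 and 139 in those 2 libraries, below all others.

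Levels were compared between genes per kilobase of exon. *Alox5* was far above the rest of the set, at 479 ± 168 normalized counts per kilobase in *Mcemp1*-/- PC and 272 ± 5.93 in wild type PC (SD, n = 3 each). Its mean over all libraries ranked 135 among 13225 genes. In *Mcemp1*-/- PC the levels per kilobase below it were *Alox5ap* (97.2 ± 13.5), *Ptgs1* (42.2 ± 2.94), *Lta4h* (41.8 ± 32.2), *Hpgds* (27.8 ± 6.81), *Pla2g4a* (16.1 ± 2.59) and *Ltc4s* (9.15 ± 3.06). In wild type PC they were *Lta4h* (74.7 ± 21.1), *Alox5ap* (73.7 ± 5.92), *Ptgs1* (37.7 ± 4.10), *Hpgds* (13.5 ± 0.457), *Pla2g4a* (12.6 ± 0.962) and *Ltc4s* (5.91 ± 0.553). Some neighbours in this order did not differ beyond their spread. These were *Lta4h* with *Ptgs1* and with *Hpgds* in *Mcemp1*-/- PC, and *Lta4h* with *Alox5ap* and *Hpgds* with *Pla2g4a* in wild type PC. *Ptgs2*, *Ptges* and *Alox15* stood at the bottom in both groups, where their libraries overlapped between neighbours. Per kilobase they had 0.377 ± 0.257, 0.143 ± 0.184 and 0.0368 ± 0.0256 in *Mcemp1*-/- PC, and 0.248 ± 0.153, 0.270 ± 0.0410 and 0.358 ± 0.183 in wild type PC.

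*Pla2g4a* (chromosome 1, 149829618 to 149961290, minus strand) encodes the phospholipase that opens the pathway. Here and for the genes after it, normalized counts are listed in the order of the replicate numbers, 4, 5 and 6 in *Mcemp1*-/- PC and 1, 2 and 3 in wild type PC. *Pla2g4a* had 118, 105 and 85.5 in *Mcemp1*-/- PC, against 73.8, 85.9 and 81.8 in wild type PC. Replicates 4 and 5 lay above all wild type libraries, but the library labelled *Mcemp1*-/- replicate 6 was just below wild type replicate 2, so the groups overlapped. Its log2 difference was 0.34 (standard error 0.13, limma adjusted p = 0.19). Leaving out that library gave 0.47 (limma adjusted p = 0.0074).

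On the leukotriene side, *Alox5* (chromosome 6, 116410077 to 116461178, minus strand) encodes 5-lipoxygenase. It had 2445, 2275 and 1176 normalized counts in *Mcemp1*-/- PC, against 1142, 1115 and 1093 in wild type PC. The groups did not overlap, but the library labelled *Mcemp1*-/- replicate 6 was only 1.05-fold above the wild type mean, while replicates 4 and 5 averaged 2.11-fold above it. The log2 difference was 0.74 (standard error 0.28, limma adjusted p = 0.18). A two-sided exact permutation test gave p = 0.1, the smallest that 3 libraries against 3 allow. Leaving out the library labelled *Mcemp1*-/- replicate 6 gave 1.08 (limma adjusted p = 9.1e-05). The summed mast cell markers had nearly the same ratios to the wild type mean, at 1.92-fold for the average of replicates 4 and 5 and 1.05-fold for that library. In bulk samples fewer cells of a type and less RNA per cell cannot be told apart, and the part of the cell mixture in these differences was not tested.

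*Alox5ap* (chromosome 5, 149264767 to 149288153, plus strand) encodes FLAP, the membrane protein that presents arachidonic acid to 5-lipoxygenase. It had 160, 128 and 126 normalized counts in *Mcemp1*-/- PC, against 104, 96.7 and 113 in wild type PC. All *Mcemp1*-/- libraries were higher, and the library labelled *Mcemp1*-/- replicate 6 was next to replicate 5. The log2 difference was 0.39 (standard error 0.12, limma adjusted p = 0.15, exact permutation p = 0.1). It was 0.45 with that library left out (limma adjusted p = 0.023). The antisense gene *Gm19719*, with a mean of 1.38 normalized counts, overlaps *Alox5ap*, and reads of such a pair cannot be told apart if counting ignored strand.

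*Ltc4s* (chromosome 11, 50236461 to 50238616, minus strand) encodes the synthase of leukotriene C4. It had 10.02, 12.0 and 5.87 normalized counts in *Mcemp1*-/- PC, against 6.62, 5.83 and 5.54 in wild type PC. The highest were replicates 4 and 5, and the library labelled *Mcemp1*-/- replicate 6 lay within the wild type range, so the groups overlapped. The log2 difference was 0.54 (standard error 0.27, limma adjusted p = 0.24), and with that library left out 0.82 (limma adjusted p = 0.0052). The antisense gene *Gm26542*, with a mean of 1.43 normalized counts, overlaps *Ltc4s*.

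*Lta4h* (chromosome 10, 93453411 to 93484875, plus strand) encodes the hydrolase that makes leukotriene B4. It had 144, 139 and 482 normalized counts in *Mcemp1*-/- PC, against 432, 341 and 595 in wild type PC. Replicates 4 and 5 averaged 0.311 of the wild type mean and were below every wild type library, whereas the library labelled *Mcemp1*-/- replicate 6 was inside the wild type range. Its log2 difference was -1.06 (standard error 0.52, limma adjusted p = 0.24). It was -1.64 with that library left out (limma adjusted p = 0.0020), the only fall among the 8 genes in that fit. The summed neutrophil precursor markers were also low in replicates 4 and 5 alone, at 0.0348 of the wild type mean, and their part in the *Lta4h* values was not tested. *Mpo*, myeloperoxidase, had 1.0, 1.1 and 5753 normalized counts in *Mcemp1*-/- PC, against 6685, 5105 and 6251 in wild type PC. The markers of this list did not all behave alike. *Ctsg*, which weighs most in the sums of replicates 4 and 5, had 436, 346 and 654, against 557, 437 and 424 in wild type PC. *Retnlg* had 1.21, 0.170 and 0.0806, against 0.877, 1.66 and 3.70 in wild type PC.

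*Alox15* (chromosome 11, 70344152 to 70352031, minus strand) encodes the 12/15-lipoxygenase, which in mice is found in resident peritoneal macrophages and eosinophils. It was below the limit for testing, with 0.0669, 0.0425 and 0.161 normalized counts in *Mcemp1*-/- PC, against 0.413, 0.913 and 1.31 in wild type PC. The values of replicates 4 and 5 are the lowest that any gene has in those libraries. All *Mcemp1*-/- libraries were below all wild type libraries, here with the library labelled *Mcemp1*-/- replicate 6 included. Fitted with no filter on low values, the log2 difference was -1.20 (standard error 0.28, limma adjusted p = 0.17). Of the 9 eosinophil markers 7 were also lower in every *Mcemp1*-/- library, among them *Epx*, eosinophil peroxidase, with 0.0669, 0.255 and 0.121 in *Mcemp1*-/- PC, against 15.9, 32.9 and 48.5 in wild type PC. The others, *Il5ra* and *Ccr3*, overlapped between the groups and weigh most in the eosinophil sums of *Mcemp1*-/- PC. *Il5ra* was highest in replicates 4 and 5, with 5.56, 5.32 and 4.22, against 1.60, 4.44 and 4.35 in wild type PC. *Ccr3* had 4.42, 5.10 and 3.91, against 5.78, 2.47 and 4.79 in wild type PC. Of the 10 macrophage markers 4 were lower in every *Mcemp1*-/- library, *C1qc* was at the lowest value of replicate 4, and *C1qa*, *C1qb* and *Mertk* at that of replicate 5. The part of either cell type in the *Alox15* values was not tested.

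On the prostaglandin side, *Ptgs1* (chromosome 2, 36230426 to 36252272, plus strand) encodes the constitutive cyclooxygenase COX-1. It had 167, 151 and 173 normalized counts in *Mcemp1*-/- PC, against 141, 134 and 164 in wild type PC. The groups overlapped, since replicate 5 was below wild type replicate 3. The log2 difference of 0.16 was the smallest of the 8 genes (standard error 0.10, limma adjusted p = 0.31), and it was 0.12 with the library labelled *Mcemp1*-/- replicate 6 left out (limma adjusted p = 0.37). The antisense gene *Gm43621*, with a mean of 0.933 normalized counts, overlaps *Ptgs1*.

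*Ptgs2* (chromosome 1, 150100031 to 150108227, plus strand) encodes the inducible cyclooxygenase COX-2. It had 1.27, 0.849 and 3.06 normalized counts in *Mcemp1*-/- PC, against 0.619, 1.93 and 0.855 in wild type PC. The library labelled *Mcemp1*-/- replicate 6 was the highest, and the others were mixed. Its log2 difference was 0.41 (standard error 0.48, limma adjusted p = 0.58), but 0.0020 with that library left out (limma adjusted p = 1.0).

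*Hpgds* (chromosome 6, 65117293 to 65144908, minus strand) encodes the haematopoietic prostaglandin D2 synthase. It had 200, 208 and 129 normalized counts in *Mcemp1*-/- PC, against 85.2, 90.2 and 85.0 in wild type PC. All *Mcemp1*-/- libraries were higher, with replicates 4 and 5 averaging 2.35-fold above the wild type mean and the library labelled *Mcemp1*-/- replicate 6 1.48-fold above it. The log2 difference was 1.01, the largest of the 3 tested genes whose groups did not overlap (standard error 0.19, limma adjusted p = 0.14, exact permutation p = 0.1). Leaving out that library gave 1.23 (limma adjusted p = 5.9e-05).

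*Ptges* (chromosome 2, 30889471 to 30929863, minus strand) encodes the inducible prostaglandin E2 synthase. It was below the limit for testing, with 0.201, 0.0854 and 1.40 normalized counts in *Mcemp1*-/- PC, against 0.877, 1.17 and 1.14 in wild type PC. The lowest were replicates 4 and 5 and the highest the library labelled *Mcemp1*-/- replicate 6, so the groups overlapped. Fitted with no filter, the log2 difference was -0.78 (standard error 0.46, limma adjusted p = 0.34).

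**Figure D2:**
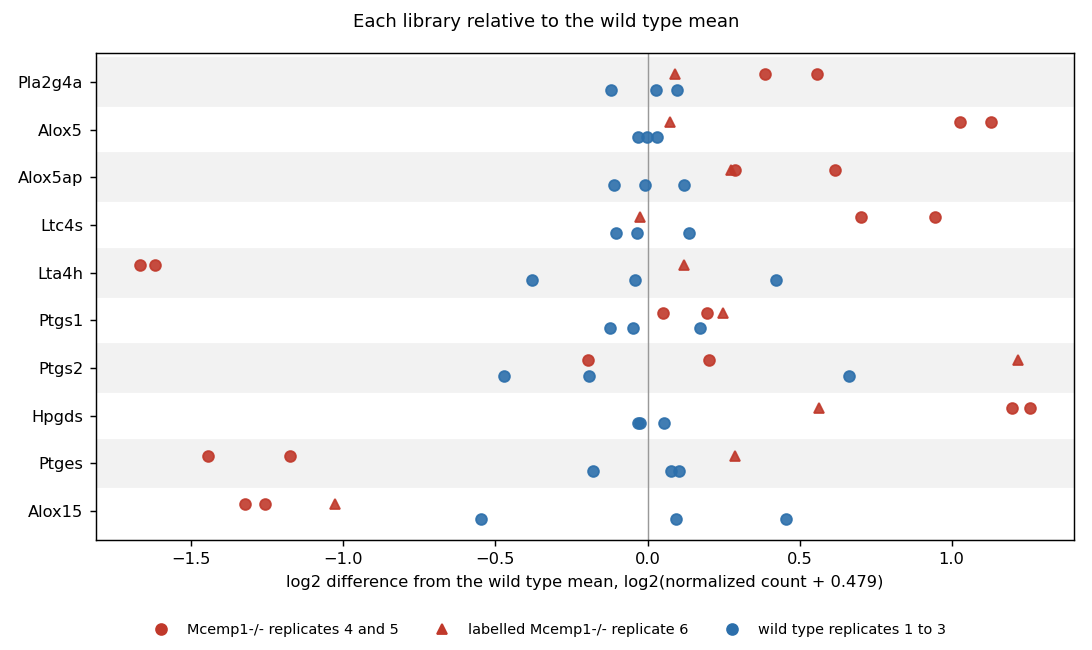
Log2 difference of each library from the wild type mean, on the scale of log2(normalized count + 0.479), for the 10 genes, with *Mcemp1*-/- libraries (red) above wild type libraries (blue) in each row. The library labelled *Mcemp1*-/- replicate 6 (triangle) is within the wild type range for *Ltc4s* and *Lta4h* and just above it for *Alox5*, and lies apart from the wild type libraries for *Hpgds*, *Alox5ap* and *Alox15*.

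The genes were then set beside the mast cell markers of the same library, per 1000 summed normalized counts of the 16 markers. On this scale *Alox5* had 45.7, 41.4 and 39.6 in *Mcemp1*-/- PC, against 41.1, 39.6 and 37.9 in wild type PC. *Ltc4s* had 0.187, 0.218 and 0.198 in *Mcemp1*-/- PC, against 0.238, 0.207 and 0.192 in wild type PC. For both genes the groups overlapped, though *Alox5* was still highest in replicates 4 and 5. *Hpgds* had 3.74, 3.79 and 4.33 in *Mcemp1*-/- PC, against 3.07, 3.20 and 2.94 in wild type PC. It was the only one of the 7 genes plotted on this scale to be higher in every *Mcemp1*-/- library. *Ptgs1* had 3.12, 2.75 and 5.84 in *Mcemp1*-/- PC, against 5.07, 4.76 and 5.69 in wild type PC. *Alox5ap* had 3.0, 2.32 and 4.25 in *Mcemp1*-/- PC, against 3.74, 3.43 and 3.93 in wild type PC. *Pla2g4a* and *Lta4h*, like these genes, were lower in replicates 4 and 5 than in any other library. *Pla2g4a* had 2.21, 1.91 and 2.88 in *Mcemp1*-/- PC, against 2.66, 3.05 and 2.83 in wild type PC. *Lta4h* had 2.69, 2.54 and 16.2 in *Mcemp1*-/- PC, against 15.5, 12.1 and 20.6 in wild type PC. These ratios were not tested. The mast cell carboxypeptidase gene *Cpa3* weighs most in the marker sum, with 14778 to 27818 normalized counts in *Mcemp1*-/- PC and 14213 to 14788 in wild type PC.

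**Figure D3:**
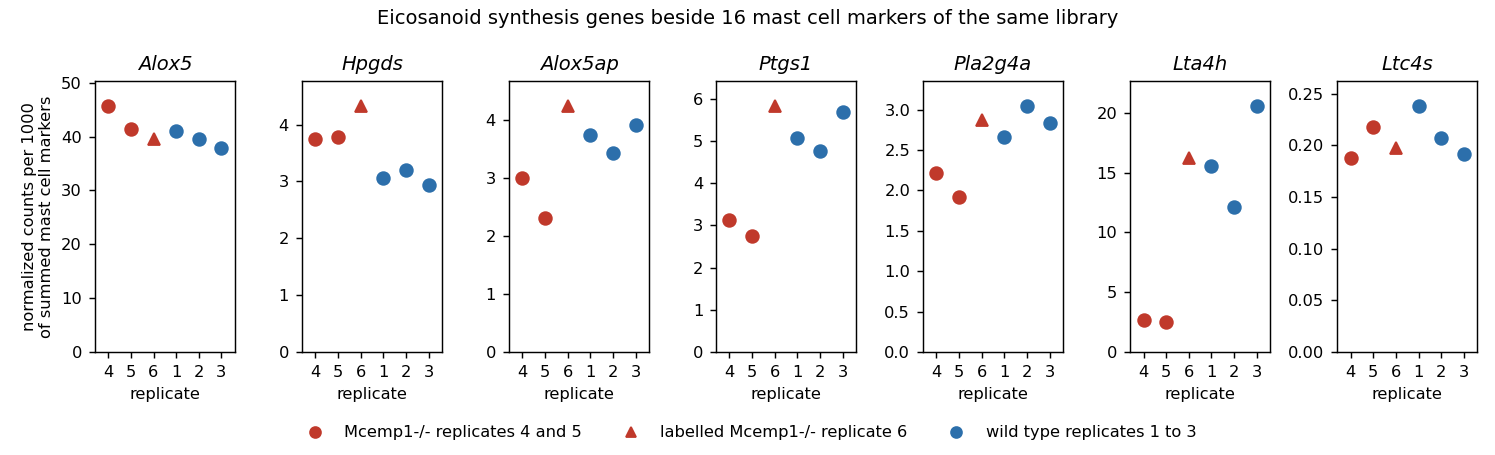
Normalized counts of 7 synthesis genes per 1000 summed normalized counts of 16 mast cell markers in the same library (linear axes from 0), with *Mcemp1*-/- replicates 4, 5 and 6 in red (triangle for the library labelled *Mcemp1*-/- replicate 6) and wild type replicates 1, 2 and 3 in blue. *Alox5* and *Ltc4s* overlap between the groups, *Hpgds* is at 3.74 to 4.33 in *Mcemp1*-/- PC against 2.94 to 3.20 in wild type PC, and *Lta4h*, *Ptgs1*, *Pla2g4a* and *Alox5ap* are lowest in *Mcemp1*-/- replicates 4 and 5.

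The balance between branches was read as the log2 ratio of 2 genes within a library, which does not depend on the scaling between libraries. There were 4 ratios, each with a two-sided exact permutation test. *Ltc4s* over *Lta4h*, the C4 branch over the B4 branch, was -3.85, -3.54 and -6.36 in *Mcemp1*-/- PC, against -6.03, -5.87 and -6.75 in wild type PC. Replicates 4 and 5 were above all wild type libraries and the library labelled *Mcemp1*-/- replicate 6 was among them. The means, -4.58 ± 1.55 in *Mcemp1*-/- PC and -6.21 ± 0.468 in wild type PC (SD, n = 3 each), did not differ beyond this spread (difference 1.63, exact p = 0.3, adjusted p = 0.5). With the library labelled *Mcemp1*-/- replicate 6 left out, the difference was 2.52 (exact p = 0.1, the smallest that 2 libraries against 3 allow). *Hpgds* over *Ptges*, the D2 branch over the E2 branch, was 9.96, 11.25 and 6.53 in *Mcemp1*-/- PC, against 6.60, 6.27 and 6.22 in wild type PC (difference 2.88, exact p = 0.2, adjusted p = 0.5). This ratio was highest in replicates 4 and 5, whose *Ptges* values were close to the lowest of the library. The difference was 4.24 without the library labelled *Mcemp1*-/- replicate 6 (exact p = 0.1) and 1.79 when 0.5 CPM was added to both genes (exact p = 0.1). *Ptgs2* over *Ptgs1* was -7.04, -7.48 and -5.82 in *Mcemp1*-/- PC, against -7.83, -6.11 and -7.59 in wild type PC (difference 0.40, exact p = 0.5, adjusted p = 0.5). With the library labelled *Mcemp1*-/- replicate 6 left out, this difference turned to -0.078 (exact p = 1), and it was 0.24 when 0.5 CPM was added to both genes. *Alox5ap* over *Alox5* was -3.93, -4.16 and -3.22 in *Mcemp1*-/- PC, against -3.46, -3.53 and -3.27 in wild type PC (difference -0.35, exact p = 0.4, adjusted p = 0.5). It was lowest in replicates 4 and 5 and highest in the library labelled *Mcemp1*-/- replicate 6, without which the difference was -0.63 (exact p = 0.1).

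**Figure D4:**
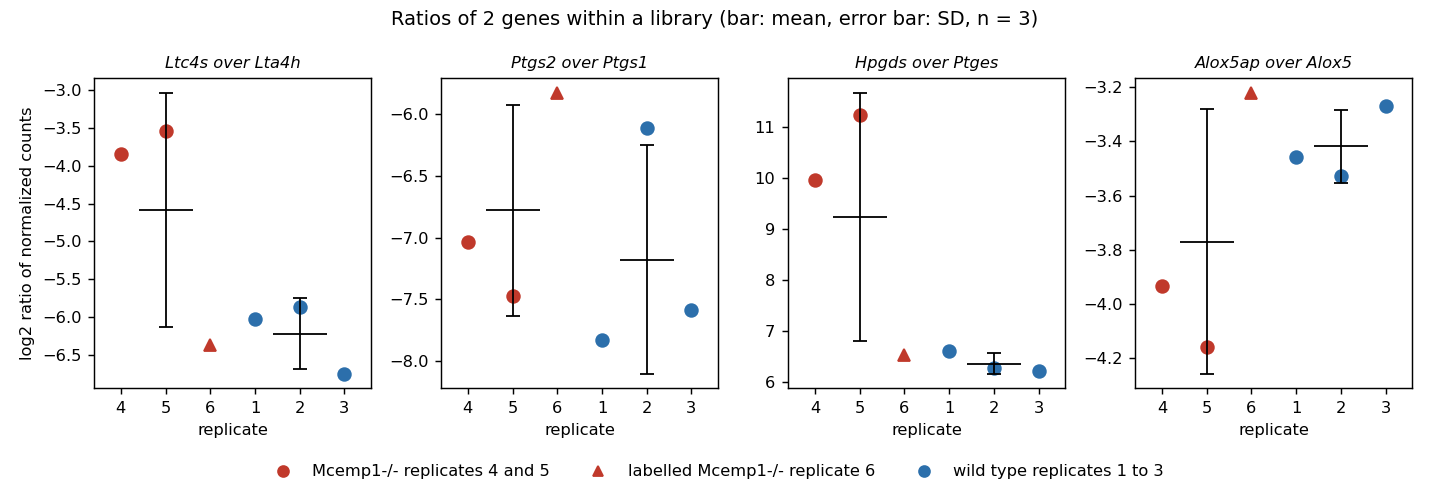
Log2 ratio of the normalized counts of 2 genes within each library, for 4 pairs, in *Mcemp1*-/- replicates 4, 5 and 6 (red, triangle for the library labelled *Mcemp1*-/- replicate 6) and wild type replicates 1, 2 and 3 (blue), with bars for means and error bars for SD (n = 3). For *Ltc4s* over *Lta4h*, *Mcemp1*-/- replicates 4 and 5 are at -3.85 and -3.54, and the triangle at -6.36 is among the wild type libraries.

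For each tested gene, the gene with the most similar pattern was looked up among 11718 others. Likeness was the root mean square difference of log2 values, each centred on its mean over the 6 libraries. *Alox5* was nearest to *Itga2b*, an integrin of platelets and mast cells (difference 0.013), with 762, 728 and 373 normalized counts in *Mcemp1*-/- PC, against 364, 351 and 348 in wild type PC. *Hpgds* was nearest to *Tgfbr1*, a TGF-beta receptor (0.019), with 750, 765 and 485 in *Mcemp1*-/- PC, against 310, 332 and 318 in wild type PC. The nearest genes of the others were *Ccser2* for *Pla2g4a* (0.032), *Vps45* for *Alox5ap* (0.045), *Pde7a* for *Ptgs1* (0.047), *Pros1* for *Ltc4s* (0.052), *Gys1* for *Lta4h* (0.083) and *Zfp36* for *Ptgs2* (0.23). With 6 libraries and so many candidates, a near neighbour is easily found.

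A wider list held 60 other genes of arachidonic acid supply and of eicosanoid synthesis, breakdown, transport and reception. Of these 37 had a row, 33 were tested, and 23 were not analysed here. By limma 0 were higher and 0 lower at an adjusted p under 0.05. At an unadjusted p under 0.05, also from limma, 6 were higher and 4 lower, against 11.6% and 13.8% of all genes. All *Mcemp1*-/- libraries lay above all wild type libraries for 4 genes and below them for 4, against 14.8% and 14.7% of all genes. The median log2 difference was -0.06. With the library labelled *Mcemp1*-/- replicate 6 left out, limma called 9 of 32 higher and 11 lower at an adjusted p under 0.05, against 19.4% of all genes higher and 22.4% lower. The values that follow are normalized counts of all libraries.

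Among the phospholipases, *Pla2g7*, the platelet-activating factor hydrolase, had 519, 494 and 292 in *Mcemp1*-/- PC, against 302, 317 and 295 in wild type PC. Replicates 4 and 5 were the highest, and the library labelled *Mcemp1*-/- replicate 6 the lowest. The lysosomal *Pla2g15* was lower in all *Mcemp1*-/- libraries, at 27.2, 23.6 and 33.1, against 38.6, 36.2 and 33.7 in wild type PC (log2 difference -0.37, limma adjusted p = 0.18). So was the secreted *Pla2g12a*, named after its values were seen, at 1.27, 1.61 and 7.50, against 12.6, 11.8 and 12.6 in wild type PC (log2 difference -2.06, limma adjusted p = 0.15). In the supply of arachidonic acid, *Mboat7*, which returns it to phosphatidylinositol, was higher in all *Mcemp1*-/- libraries, at 288, 260 and 179, against 156, 168 and 158 in wild type PC (log2 difference 0.56, limma adjusted p = 0.16). *Acsl4*, which activates arachidonic acid to its CoA ester, had 170, 185 and 138 in *Mcemp1*-/- PC, against 163, 150 and 152 in wild type PC, and the groups overlapped. *Anxa1*, a glucocorticoid-induced protein first described as an inhibitor of phospholipase A2, was named after its values were seen. It had 26.9, 23.6 and 184 in *Mcemp1*-/- PC, against 126, 147 and 162 in wild type PC, with replicates 4 and 5 the lowest. With all libraries, limma gave log2 differences of 0.47 for *Pla2g7* (adjusted p = 0.23), 0.074 for *Acsl4* (adjusted p = 0.69) and -1.54 for *Anxa1* (adjusted p = 0.25). Without the library labelled *Mcemp1*-/- replicate 6, limma gave log2 differences of 0.73 for *Pla2g7* (adjusted p = 2.5e-04), -0.50 for *Pla2g15* (adjusted p = 0.0084) and -2.74 for *Pla2g12a* (adjusted p = 8.8e-05). In the same fit they were 0.77 for *Mboat7* (adjusted p = 4.0e-04), 0.20 for *Acsl4* (adjusted p = 0.055) and -2.49 for *Anxa1* (adjusted p = 6.9e-05), so that all but *Acsl4* passed.

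Among the other enzymes, *Tbxas1*, the thromboxane synthase, had 176, 170 and 112 in *Mcemp1*-/- PC, against 111, 106 and 113 in wild type PC. Replicates 4 and 5 were the highest, and the library labelled *Mcemp1*-/- replicate 6 lay in the wild type range. *Ptges3*, a cytosolic prostaglandin E synthase also known as the co-chaperone p23, was even, with 220, 215 and 215 in *Mcemp1*-/- PC, against 224, 232 and 197 in wild type PC. The lipoxygenase gene *Alox8* was low, with 4.39, 4.46 and 3.60 in *Mcemp1*-/- PC, against 4.26, 4.94 and 5.02 in wild type PC. *Mgst2*, another enzyme able to make leukotriene C4, was far lower in replicates 4 and 5, with 1.15, 0.942 and 42.7 in *Mcemp1*-/- PC, against 42.2, 30.1 and 63.9 in wild type PC. Its log2 difference was -3.24 (limma adjusted p = 0.20), and -4.85 with the library labelled *Mcemp1*-/- replicate 6 left out (limma adjusted p = 1.4e-04). Like *Lta4h* and the sum of the neutrophil precursor markers, though not each of these markers, *Mgst2* was thus low in replicates 4 and 5 alone. *Abcc1*, the exporter of leukotriene C4, was higher in all *Mcemp1*-/- libraries, at 257, 236 and 181, against 149, 164 and 171 in wild type PC (log2 difference 0.46, limma adjusted p = 0.16). *Dpep2*, a dipeptidase able to turn leukotriene D4 into E4, was named after its values were seen, and had 0.270, 0.298 and 5.02 in *Mcemp1*-/- PC, against 3.03, 7.43 and 6.73 in wild type PC. With all libraries, limma gave log2 differences of 0.44 for *Tbxas1* (adjusted p = 0.20) and -1.99 for *Dpep2* (adjusted p = 0.20). They were -0.17 for *Alox8* (adjusted p = 0.46) and -0.0046 for *Ptges3* (adjusted p = 0.97). In the fit without the library labelled *Mcemp1*-/- replicate 6, *Tbxas1* (log2 difference 0.65, adjusted p = 3.6e-04), *Abcc1* (0.61, adjusted p = 0.0017) and *Dpep2* (-2.94, adjusted p = 0.0019) passed by limma. *Alox8* (-0.085, adjusted p = 0.67) and *Ptges3* (0.00063, adjusted p = 1.0) did not.

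In breakdown and transport, *Ptgr1*, a reductase that inactivates leukotriene B4 and prostaglandins, had 72.7, 75.8 and 100.1 in *Mcemp1*-/- PC, against 89.9, 79.3 and 97.2 in wild type PC. The prostaglandin exporter *Abcc4* had 30.9, 26.0 and 75.7 in *Mcemp1*-/- PC, against 78.3, 66.2 and 70.6 in wild type PC. Both genes were lowest in replicates 4 and 5. Of the receptors, *Ptger3*, which binds prostaglandin E2, had 90.6, 89.4 and 55.0 in *Mcemp1*-/- PC, against 51.3, 57.0 and 46.4 in wild type PC. The library labelled *Mcemp1*-/- replicate 6 was here inside the wild type range. *Ptgir*, the prostacyclin receptor, was higher in all *Mcemp1*-/- libraries, at 54.0, 60.3 and 46.3, against 43.7, 40.0 and 44.6 in wild type PC (log2 difference 0.31, limma adjusted p = 0.17). So was *Ptger1*, another receptor of prostaglandin E2, named after its values were seen, at 9.83, 11.8 and 12.9, against 7.71, 7.60 and 7.92 in wild type PC (log2 difference 0.54, limma adjusted p = 0.15). A pair of leukotriene receptors and the prostaglandin E2 receptor *Ptger2* were low in replicates 4 and 5 alone. These were also named after their values were seen. *Cysltr1*, which binds leukotriene D4, had 0.0669, 0.0867 and 4.60 in *Mcemp1*-/- PC, against 3.87, 4.73 and 3.48 in wild type PC. *Ltb4r1*, the leukotriene B4 receptor of neutrophils, had 3.35, 4.25 and 21.2 in *Mcemp1*-/- PC, against 18.4, 16.5 and 36.5 in wild type PC. *Ptger2* had 0.0669, 0.0425 and 1.65 in *Mcemp1*-/- PC, against 1.34, 2.31 and 3.16 in wild type PC. In replicates 4 and 5, *Cysltr1* and *Ptger2* were at or close to the lowest value of the library. The leukotriene receptor *Ltb4r2*, also named after its values were seen, overlapped between the groups. It had 1.96, 2.25 and 1.55 in *Mcemp1*-/- PC, against 1.75, 1.77 and 2.22 in wild type PC. With all libraries, limma gave log2 differences of -0.85 for *Abcc4* (adjusted p = 0.22), -1.95 for *Cysltr1* (adjusted p = 0.22) and -1.64 for *Ltb4r1* (adjusted p = 0.21). They were 0.57 for *Ptger3* (adjusted p = 0.18) and -0.11 for *Ptgr1* (adjusted p = 0.63). For *Ptger2* the log2 difference by limma was -1.64 (adjusted p = 0.18), and for *Ltb4r2* it was -0.0025 (adjusted p = 0.99). Without the library labelled *Mcemp1*-/- replicate 6, *Abcc4* (log2 difference -1.32, adjusted p = 3.3e-04), *Cysltr1* (-3.01, adjusted p = 3.1e-04) and *Ltb4r1* (-2.42, adjusted p = 0.0026) fell by limma. In that fit *Ptger3* (0.80, adjusted p = 0.0012), *Ptgir* (0.41, adjusted p = 0.0091) and *Ptger1* (0.45, adjusted p = 0.027) rose, and *Ptgr1* (-0.25, adjusted p = 0.075) did not pass. *Ptger2* (-2.31, adjusted p = 0.0040) also fell by limma in that fit, and *Ltb4r2* (0.11, adjusted p = 0.70) did not pass.

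**Figure D5:**
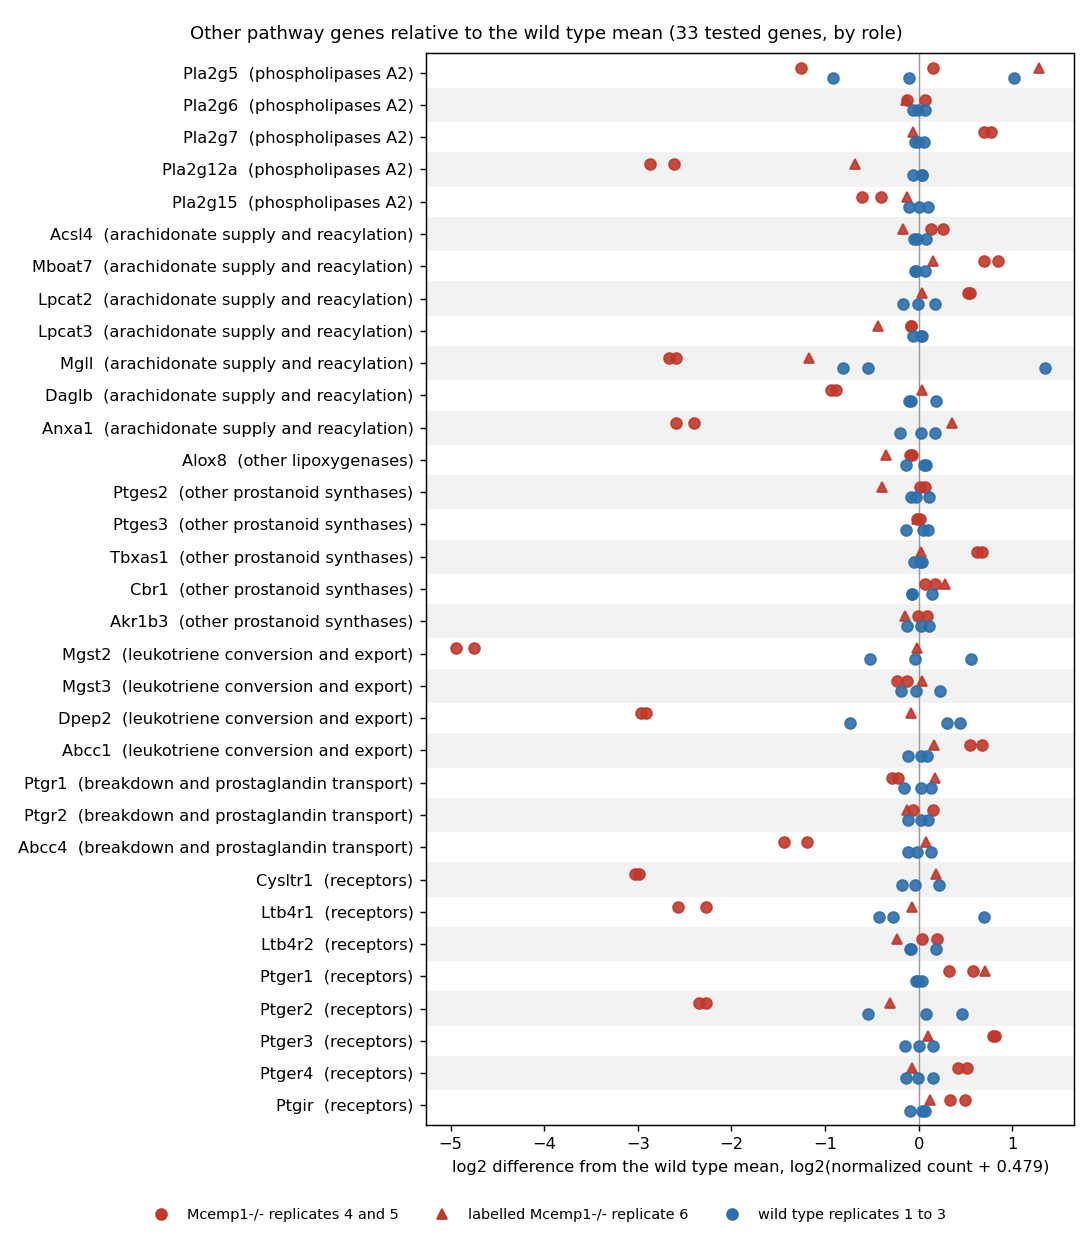
Log2 difference of each library from the wild type mean, on the scale of log2(normalized count + 0.479), for the 33 other pathway genes tested, in rows by role, with *Mcemp1*-/- libraries (red, triangle for the library labelled *Mcemp1*-/- replicate 6) above wild type libraries (blue). *Mgst2*, *Cysltr1*, *Dpep2*, *Anxa1*, *Ltb4r1* and *Ptger2* are low in *Mcemp1*-/- replicates 4 and 5 alone, whereas *Pla2g12a* is lower and *Ptger1* higher in all 3 *Mcemp1*-/- libraries.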

How the data were processed

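RNA of cultured PC was made into 6 KAPA mRNA HyperPrep libraries (3 *Mcemp1*-/- and 3 wild type) for Illumina sequencing. The authors processed the reads in Partek Flow, and mm10 is the build named in the notes of the submitters. The deposited values are a signal for each gene and library, namely normalized counts on a scale near CPM. The sources used here do not give the aligner, annotation, normalization, filters or use of strand. Library totals of 932999 to 989051 are a normalized scale, and the depth is unknown. No value was 0. The lowest value of a library was shared by 111 to 752 genes, and 40.0% to 50.9% of low values lay within 0.01 of its whole multiples (up to 20), so no whole reads were recovered and no count model was used.

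The 13513 genes with a mean of 1 CPM or more at the mean library total (0.957 deposited units) were tested on log2(value + 0.479), where 0.479 is 0.5 CPM. The tool was limma 3.58.1 in R 4.3.3 (lmFit, and eBayes with a trend). Changes on this scale understate those of low genes. P-values are two-sided with Benjamini-Hochberg adjustment over all genes tested. The written limit was a mean of 1 without a unit, and it was read as CPM once the table had been opened. Single genes and ratios were also compared by exact permutation over the libraries. TMM factors came from a short implementation of that method. Exon lengths came from GENCODE vM21, which shares 16865 of 17320 gene starts (97.4%), and promoters from RefSeq. The fit was tested on simulated data, and matplotlib 3.10.9 drew the figures.

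The genes, lists and tests were chosen with earlier results of these data known. All 10 synthesis genes are named, and single markers and overlapping genes were picked after their values were seen. Of the 60 others, the rule names those with an adjusted p under 0.05 (0 genes) and the 2 with the highest mean in each role. A further list, of basophil markers, summed to 327, 354 and 216 in *Mcemp1*-/- PC and to 206 to 224 in wild type PC. This sum was mostly *Cd200r3*, and the other basophil markers, *Mcpt8* and *Prss34*, were lower in every *Mcemp1*-/- library. Others were of megakaryocyte markers (1182, 1096 and 584, and 587 to 607, nearly all *Itga2b* and *Gp1ba*) and lymphocyte markers (8.42 to 11.9, and 7.72 to 12.4). Of the megakaryocyte markers, *Pf4* and *Ppbp* were lower and *Itga2b* higher in every *Mcemp1*-/- library.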

Additional observations from a re-analysis of the deposited data

How the results depend on the processing

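Each fit was repeated with a lower (0.1 CPM) and a higher (2 CPM) pseudocount, without the filter and with one of 5 CPM, with TMM factors, with plain eBayes, and without each library. A filter of 1 deposited unit was added after seeing the data. Of 103 refits of the 8 tested synthesis genes, 97 kept direction and side of the threshold, 6 passed the threshold (all without replicate 6) and 0 reversed. Without 1 library, the calls ranged over 0 to 5 synthesis genes higher and 0 to 1 lower, 0 to 9 other pathway genes higher and 0 to 11 lower, and 0 to 2621 of all genes higher and 0 to 3019 lower. The upper ends were all without the library labelled *Mcemp1*-/- replicate 6, and with all libraries 2 genes were higher and 8 lower. Leaving out replicate 4 or 5 gave 0 genes of the table in either direction, and the higher pseudocount gave 5 lower genes. Over these settings the limma adjusted p ranged from 9.1e-05 to 0.48 for *Alox5*, 5.9e-05 to 0.46 for *Hpgds*, 0.023 to 0.46 for *Alox5ap*, 0.0074 to 0.48 for *Pla2g4a*, 0.0052 to 0.56 for *Ltc4s* and 0.0020 to 0.56 for *Lta4h*. Near 0, some differences turned sign. Without 1 library *Acsl4* ranged from -0.017 to 0.20, *Ptges3* from -0.075 to 0.043 and the ratio of *Ptgs2* over *Ptgs1* from -0.078 to 0.93, and with TMM factors *Ptges3* was 0.041. TMM moved libraries by -0.04 to 0.04 on the log2 scale. The cause of these shifts was not tested. No paired analysis was made, because the sources used here do not say whether libraries of the groups were matched. They also give no batches of culture or sequencing. Values close to the lowest of a library limit what can be said of *Alox15*, *Ptges* and *Ptgs2*. The same holds for *Cysltr1*, *Ptger2* and *Dpep2*, through their values in replicates 4 and 5. With all libraries, the falls of *Cysltr1* and *Dpep2* were larger with the lower pseudocount and smaller with the higher one. The size of these falls, though not their direction, thus depends on the pseudocount.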
